A study of Mus musculus with 14 samples.

Results

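The iron handling genes described here were followed in epididymal white adipose tissue (eWAT), the visceral fat depot beside the epididymis of male mice. The 10 genes were chosen by symbol (Ftl1, Fth1, Hmox1, Slc11a1, Slc40a1, Tfrc, Trf, Cp, Hp and Lcn2) from 23282 rows of the count table, and each symbol had 1 row. All mice were male wild-type C57BL/6J animals, 4 weeks old at purchase, and were kept for 20 weeks on a normal diet (control) or on a Western diet (WD) with added milk fat and cholesterol. Batch 1 held 4 control libraries (replicates 1 to 4) and 5 WD libraries (replicates 1 to 5), and batch 2 held 5 further control libraries (replicates 5 to 9). The labels do not say what the batches stand for, nor whether each library came from 1 mouse, so p-values measure the spread between these libraries. The question was how the mRNAs of iron storage, heme breakdown, iron transport and iron-binding plasma proteins differed between the diets.

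Iron inside cells is stored in ferritin, a shell built of heavy chains (Fth1), which oxidise iron, and light chains (Ftl1), which help it to mineralise. Macrophages recover iron from engulfed red cells: Hmox1 opens the heme ring, Slc11a1 carries metal out of the phagosome and Slc40a1 (ferroportin) is the exporter of iron from the cell. In blood, iron travels on transferrin (Trf) and enters cells through the transferrin receptor (Tfrc), while Cp oxidises iron, Hp binds free hemoglobin and Lcn2 binds the siderophores with which bacteria gather iron. Fat tissue secretes several of these proteins and also holds many macrophages.

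Several of these mRNAs carry an iron-responsive element, a short hairpin bound by iron regulatory proteins when iron is scarce. Such a hairpin near the start of an mRNA blocks its translation, and hairpins near its end protect it from decay. The elements are shown because they mark which members iron regulatory proteins could bind. Read counts do not measure the resulting control of translation for ferritin and ferroportin. The annotated UTRs (GENCODE M21, GRCm38, transcript strand only) were searched for a C, 5 bases, a loop and 5 bases able to pair with the first 5. The loop was CAGTG followed by A, C or T, and G with T was accepted as a pair. The search found 1 element in the 5′ UTR of Fth1 (chr19:9982732-9982761, plus strand), Ftl1 (chr7:45459778-45459807, minus strand) and Slc40a1 (chr1:45925464-45925493, minus strand). It found 4 in the 3′ UTR of Tfrc on the plus strand, at chr16:32631219-32631248, chr16:32631598-32631627, chr16:32631663-32631692 and chr16:32631710-32631739. Capitals mark the loop in each 30-base window.
Fth1, 5′ UTR: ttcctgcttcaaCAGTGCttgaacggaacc
Ftl1, 5′ UTR: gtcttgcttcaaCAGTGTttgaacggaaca
Slc40a1, 5′ UTR: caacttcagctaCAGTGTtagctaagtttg
Tfrc, 3′ UTR, element 1: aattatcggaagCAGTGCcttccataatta
Tfrc, 3′ UTR, element 2: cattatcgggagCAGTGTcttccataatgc
Tfrc, 3′ UTR, element 3: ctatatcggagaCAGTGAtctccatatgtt
Tfrc, 3′ UTR, element 4: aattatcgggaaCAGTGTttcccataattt
The same search matched 0.0826% of 20579 genes with a 5′ UTR and 0.41% of 20744 genes with a 3′ UTR. The other 6 members had no match to these letters, and the search did not cover other regulation after transcription.

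The 14 libraries were sequenced from the 3′ end of the mRNA and held 10278970 to 13712254 counts each, so that 3 counts, taken as the limit that a count of 0 allows, came to 0.212 to 0.324 CPM, the count scaled to a common library size, for counting error alone. CPM values here are scaled by TMM factors over all 14 libraries. Control replicates 1, 2 and 4 of batch 1 and WD replicate 2 stood apart. Control replicate 1 held 39235 CPM over 10 epididymis genes, against at most 12.7 CPM in every other library, and only 5872 CPM over 10 adipocyte genes, against 31225 to 62853 CPM elsewhere. Control replicate 2 held 813 CPM over 8 hepatocyte genes, against at most 135 CPM in every other library. Control replicate 4 had counts for 7999 genes, against 10903 to 13780 in the others. WD replicate 2 had a TMM factor of 0.838, against 0.946 to 1.12 in all libraries other than control replicate 1 (0.770). In bulk tissue, fewer cells of a type and less RNA per cell cannot be told apart.

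Within batch 1, no member passed the test between WD and control tissue, and Ftl1 was the member whose groups did not overlap. The WD libraries had a mean Ftl1 level of 694 ± 171 CPM (SD, n = 5) against 353 ± 108 CPM (n = 4) in the controls. All 10 members passed the filter on low counts in every comparison. By edgeR's quasi-likelihood test with Benjamini-Hochberg adjustment (FDR threshold 0.05), 0 of 10 members passed, beside 0% of the 12157 genes tested. At an unadjusted p under 0.05, 2 members passed (Ftl1 and Lcn2), beside 5.17% of all genes, and limma-voom called 0 members and 0 genes. DESeq2 called 0 members, beside 0.938% of genes. The groups did not overlap for 1 member, Ftl1, beside 3.03% of genes with all WD libraries higher and 0.847% with all lower. The median log2 fold change was -0.06 over the members and 0.03 over all genes tested.

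Against the batch 2 controls, 4 members were higher in WD tissue (Ftl1, Hp, Slc11a1 and Hmox1) and 1 was lower (Trf). These 5 of 10 stood beside 6.4% of 12070 genes called, or 3.93% higher and 2.48% lower. The members had been chosen with earlier results of these data known, so these shares are a description only. Ftl1 and Hp were higher in every WD library than in every batch 2 control, beside 4.99% of genes, and Trf was lower in every WD library, beside 3.8%. All WD libraries were of batch 1, so diet and batch cannot be told apart in this comparison, and it uses the same WD libraries as the one within batch 1. When all 14 libraries shared a fit with a coefficient for each group, which gives all groups 1 estimate of the spread, 1 member (Ftl1) was called against the batch 2 controls, beside 1.06% of 13159 genes.

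**Figure D1:**
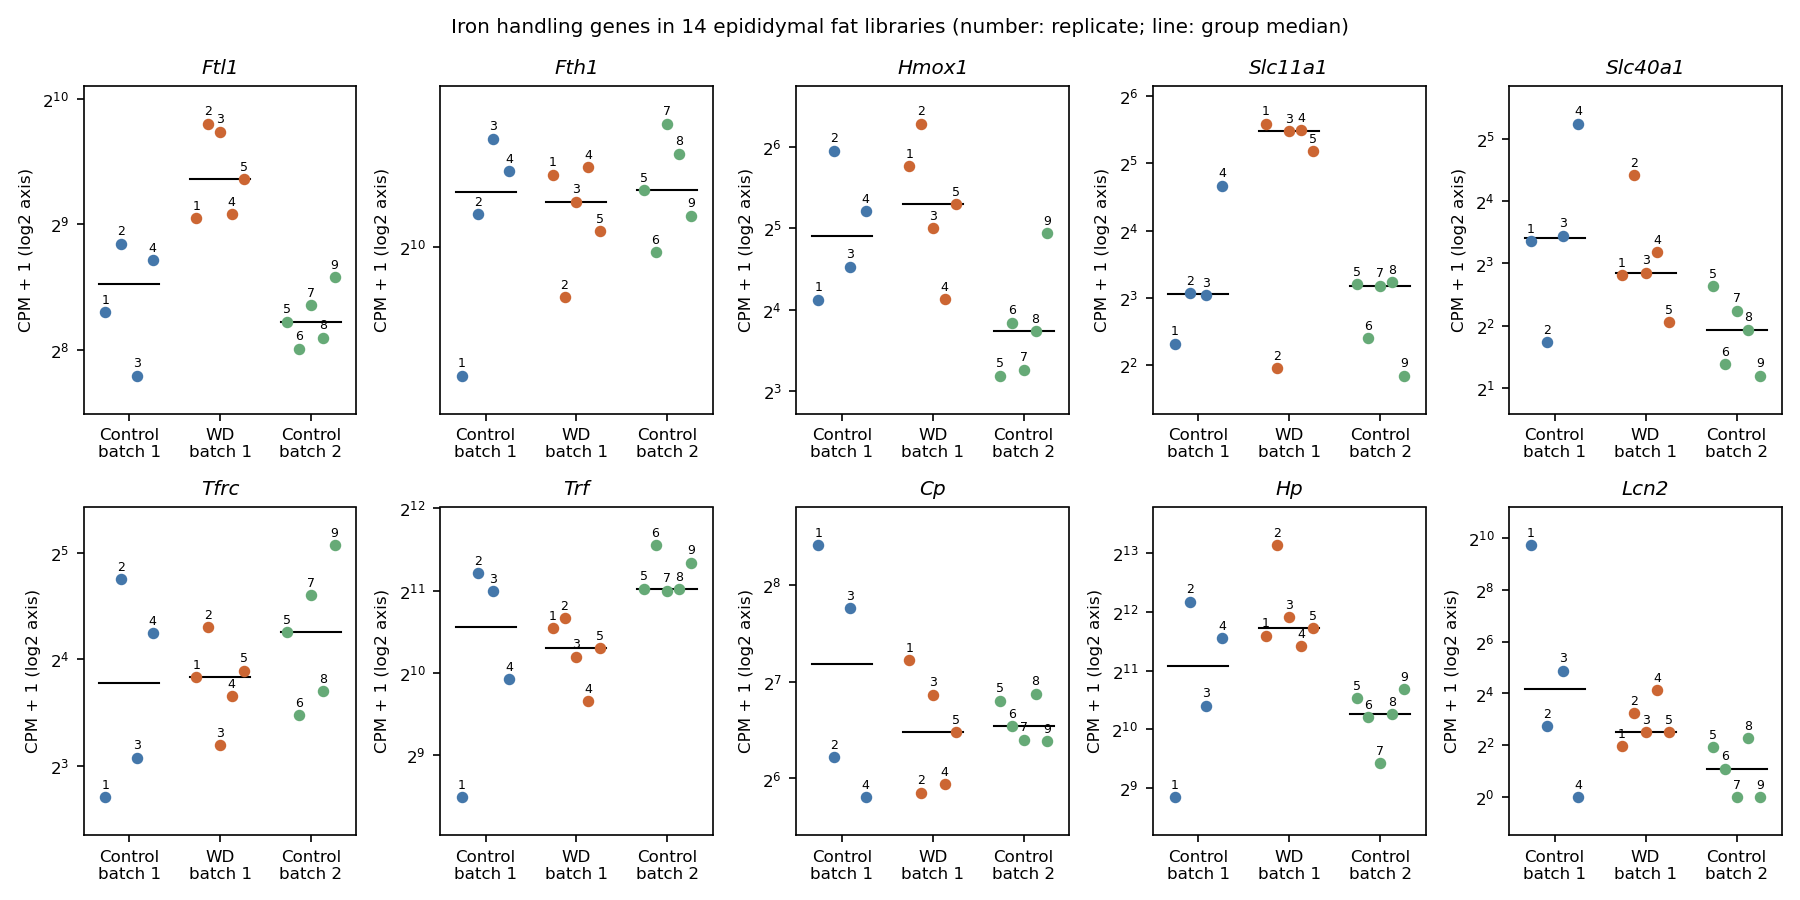
Level of each of the 10 genes as CPM plus 1 on a log2 axis in the 14 libraries, by group, with the replicate number beside each point and a line at the group median. Ftl1 in the WD libraries (529 to 892 CPM) lies above all controls (220 to 459 CPM). The share of all genes separated in this way was not computed. Lcn2 stands at 838 CPM in control replicate 1 alone.

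**Figure D2:**
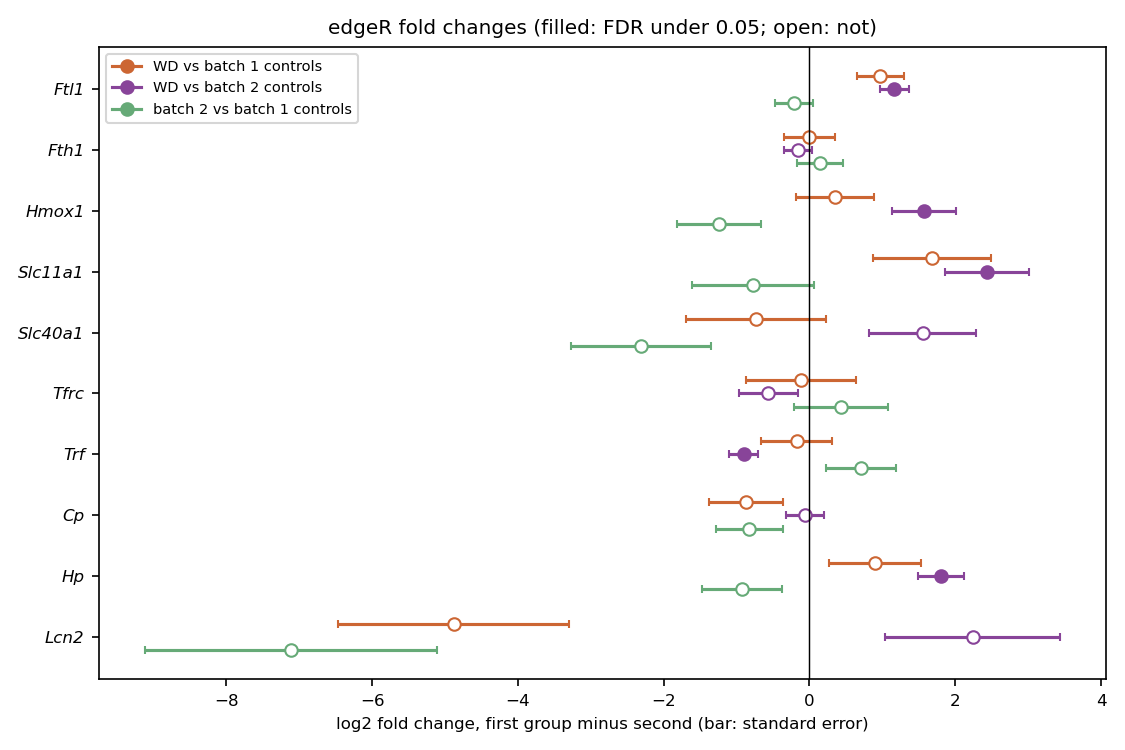
Log2 fold changes of the 10 genes by edgeR in the 3 comparisons, first group minus second, with bars for the standard error and filled points for an FDR under 0.05. Filled points appear only for WD against batch 2 controls, at Ftl1, Hmox1, Slc11a1, Trf and Hp.

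Ferritin light chain mRNA was higher in each WD library than in any control library, while the heavy chain did not pass the test in any comparison. Ftl1 (chr7:45457944-45459886 on mm10, the build of all gene positions here, minus strand) overlaps the annotated genes Gm22133 on the same strand and Gm10252 on the opposite strand, whose reads could not be separated here. It measured 314, 459, 220 and 418 CPM in control replicates 1 to 4. It reached 529, 892, 854, 541 and 656 CPM in WD replicates 1 to 5. In control replicates 5 to 9 it measured 298, 256, 326, 272 and 382 CPM. Every WD library thus held more Ftl1 than every control library of either batch. The share of all genes separated in this way from all 9 controls was not computed. All WD libraries were higher for 3.03% of genes within batch 1 and for 4.99% against batch 2 controls, where diet and batch cannot be told apart. The group means were 694 ± 171 CPM (SD, n = 5) for WD, 353 ± 108 (n = 4) for batch 1 controls and 307 ± 49.6 (n = 5) for batch 2 controls. By edgeR, Ftl1 had a log2 fold change of 0.97 ± 0.33 (SE) within batch 1, with an adjusted p of 0.591 (unadjusted p = 0.0108), which did not pass. Set against batch 2 controls, Ftl1 was higher by 1.16 ± 0.20 on the log2 scale, with an adjusted p of 0.00147 by edgeR. With all 9 controls together and no term for batch, edgeR gave 1.07 and an adjusted p of 0.0287, and Ftl1 was the 1 member called, beside 0.53% of 12653 genes.

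Fth1 (chr19:9980600-9985111, plus strand) ranged from 626 to 1540 CPM in batch 1 controls, from 843 to 1382 CPM in WD tissue and from 1001 to 1630 CPM in batch 2 controls. These ranges overlapped almost entirely, and the lowest value belonged to control replicate 1. The means were 1171 ± 395 CPM (SD, n = 4), 1173 ± 219 (n = 5) and 1301 ± 248 (n = 5) in that order. The edgeR log2 fold change against batch 2 controls was -0.16 ± 0.19 (SE), with an adjusted p of 0.786. Within batch 1 it was -0.00035 ± 0.35, with an adjusted p of 1.00 by edgeR.

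The ratio of the ferritin chain counts varied from library to library. Counts of Ftl1 per count of Fth1 were 0.501, 0.398, 0.143 and 0.307 in control replicates 1 to 4. The ratio stood at 0.394, 1.058, 0.704, 0.391 and 0.605 in WD replicates 1 to 5, and at 0.235, 0.256, 0.200, 0.187 and 0.332 in control replicates 5 to 9. WD libraries lay above all batch 2 controls but overlapped control replicates 1 and 2 of batch 1, and WD replicate 2 was the only library with more counts of the light chain. Means were 0.630 ± 0.275 (SD, n = 5) for WD, 0.337 ± 0.151 (n = 4) for batch 1 controls and 0.242 ± 0.0573 (n = 5) for batch 2 controls. The ratio was formed after the values had been seen and is given as a description with no test. Reads aligning to several places were counted, and the annotation lists near copies of both chains (such as Ftl1-ps1 and Fth-ps2), so how many ferritin reads each locus gave is uncertain. Among the rows read, symbols beginning with Fth or Ftl were Fth1, Ftl1 and Fthl17, the last with 0 counts in every library.

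**Figure D3:**
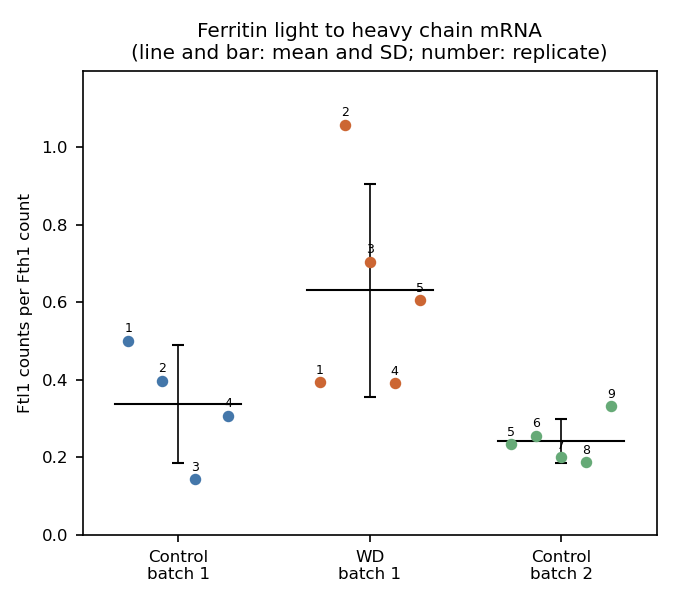
Counts of Ftl1 per count of Fth1 in each library by group, with the replicate number beside each point, a line at the group mean and bars for the SD. WD libraries span 0.391 to 1.058, above all batch 2 controls (0.187 to 0.332) and overlapping batch 1 controls (0.143 to 0.501).

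Heme oxygenase 1, the inducible enzyme that turns heme into biliverdin, iron and carbon monoxide, varied widely within batch 1. Hmox1 (chr8:75093618-75100593, plus strand) measured 16.4, 61.0, 22.1 and 35.9 CPM in control replicates 1 to 4, and 53.2, 76.8, 30.9, 16.5 and 38.3 CPM in WD replicates 1 to 5. The batch 2 controls held 8.12, 13.3, 8.61, 12.3 and 29.6 CPM in replicates 5 to 9. WD replicate 4 lay with the lowest batch 1 control, and the ranges within batch 1 overlapped. The means were 43.2 ± 23.02 CPM (SD, n = 5) for WD, 33.9 ± 19.9 (n = 4) for batch 1 controls and 14.4 ± 8.82 (n = 5) for batch 2 controls. By edgeR, the log2 fold change was 0.35 ± 0.53 (SE) within batch 1 (adjusted p = 1.00). It was 1.57 ± 0.44 against batch 2 controls (adjusted p = 0.0409 by edgeR), where WD replicate 4 lay below control replicate 9. That call was lost when any 1 of 8 of the 10 libraries was left out, with log2 fold changes of 1.26 to 2.01 and adjusted p-values of 0.011 to 0.111 by edgeR over the 10 fits. It held without WD replicate 4 and without control replicate 9.

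Slc11a1 (chr1:74375203-74386051, plus strand), also called Nramp1 and a phagocyte gene, was high in 4 of 5 WD libraries. Control replicates 1 to 4 held 4.00, 7.42, 7.25 and 24.4 CPM, and control replicates 5 to 9 held 8.19, 4.29, 8.09, 8.40 and 2.60 CPM. WD replicates 1, 3, 4 and 5 held 47.0, 43.4, 44.1 and 35.3 CPM, while WD replicate 2 held 2.90 CPM from 27 counts. That single WD library fell within the range of the controls, and the other 4 lay above all of them. The means were 34.5 ± 18.2 CPM (SD, n = 5) for WD, 10.8 ± 9.22 (n = 4) for batch 1 controls and 6.31 ± 2.69 (n = 5) for batch 2 controls. The edgeR log2 fold change was 1.68 ± 0.81 (SE) within batch 1, with an adjusted p of 1.00 (unadjusted p = 0.0591). Without control replicate 4 it was 2.45 with an adjusted p of 0.238 by edgeR, and without WD replicate 2 it was 1.98 with an adjusted p of 0.778. With both of those libraries left out, a choice made after seeing the data, it was 2.76 with an adjusted p of 0.0512 by edgeR. Slc11a1 was higher than in batch 2 controls by 2.44 ± 0.57, with an adjusted p of 0.0157 by edgeR. That call held with each library left out in turn, the highest adjusted p being 0.048, but limma-voom gave 2.14 and an adjusted p of 0.208.

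Slc40a1 (chr1:45908070-45925594, minus strand), the exporter, was not separated by diet. It measured 9.29, 2.34, 9.92 and 36.8 CPM in control replicates 1 to 4. WD replicates 1 to 5 held 6.00, 20.4, 6.22, 8.07 and 3.17 CPM, and control replicates 5 to 9 held 5.23, 1.62, 3.74, 2.83 and 1.30 CPM. One library in each group of batch 1, control replicate 4 and WD replicate 2, lay far above its fellows. By edgeR the log2 fold change was -0.74 ± 0.96 (SE) within batch 1 (adjusted p = 1.00) and 0.27 without control replicate 4 (adjusted p = 0.990), so its direction rested on that library. The value against batch 2 controls was 1.55 ± 0.74, with an adjusted p of 0.285 by edgeR.

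Levels of macrophage genes were set beside these results. The summed level of 10 macrophage genes (Adgre1, Cd68, Csf1r, Itgam, Mrc1, Lyz2, C1qa, C1qb, Mertk and Itgax) was 1800 to 3067 CPM in WD tissue, 391 to 1640 CPM in batch 1 controls and 399 to 817 CPM in batch 2 controls. No macrophage marker was at 0 throughout a group. Of 9 markers tested, 8 were higher in WD than in batch 2 controls by edgeR, with a median log2 fold change of 1.96 over the 9, and 0 passed within batch 1, with a median of 1.45. WD replicate 2 had the highest macrophage sum (3067 CPM) and the lowest Slc11a1 of the WD libraries (2.90 CPM). Control replicate 4 had the highest macrophage sum of the controls (1640 CPM) and the highest Slc11a1 and Slc40a1 among them. The part of macrophage content in the levels of Ftl1, Hmox1, Slc11a1 and Slc40a1 was not tested.

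**Figure D4:**
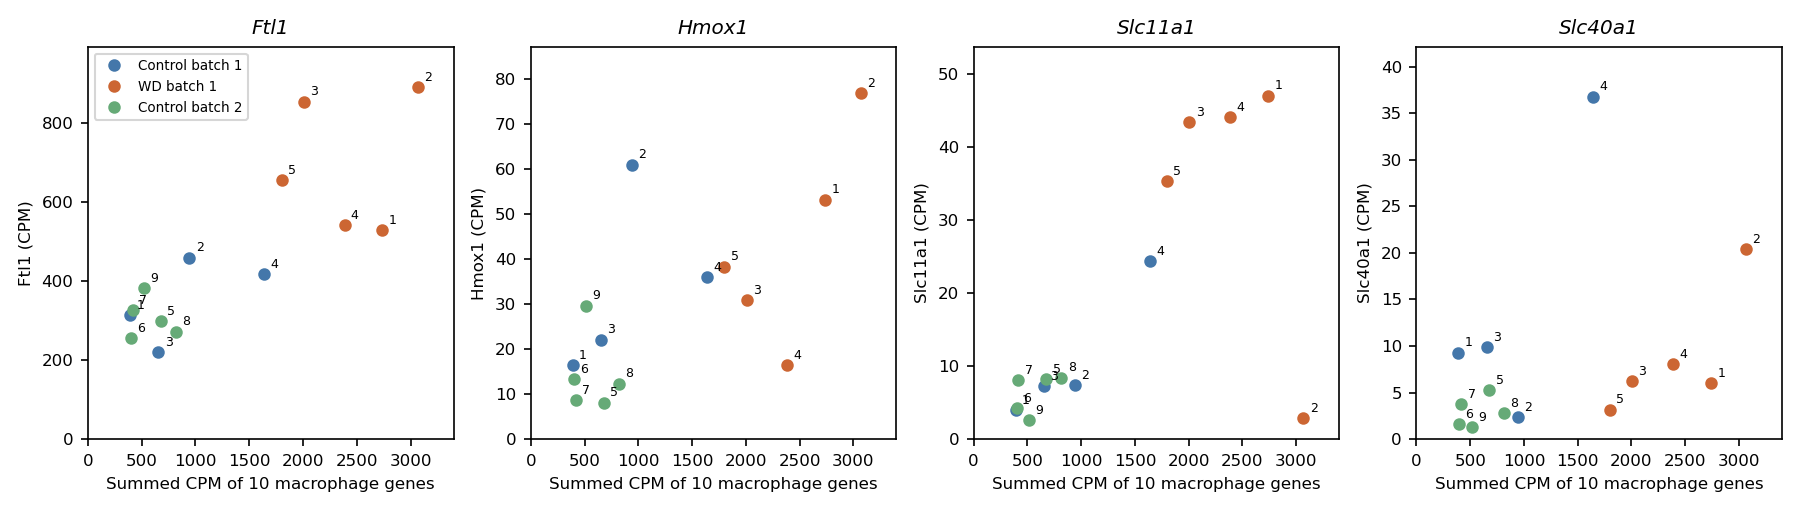
Level in CPM of Ftl1, Hmox1, Slc11a1 and Slc40a1 against the summed CPM of 10 macrophage genes in the 14 libraries, coloured by group and numbered by replicate. WD replicate 2 has the highest macrophage sum (3067 CPM) yet a Slc11a1 level of 2.90 CPM, beside 35.3 to 47.0 CPM in the other WD libraries.

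Of the genes for iron uptake from blood, the carrier differed against batch 2 controls and the receptor did not. Trf (chr9:103208876-103230286, minus strand), which adipocytes also express, measured 359, 2369, 2037 and 969 CPM in control replicates 1 to 4. It measured 1491, 1626, 1173, 808 and 1260 CPM in WD replicates 1 to 5 and 2083, 2997, 2043, 2068 and 2586 CPM in control replicates 5 to 9. All WD libraries were below all batch 2 controls but lay inside the range of the batch 1 controls. The lowest of those, control replicate 1, was the library with epididymis genes and few adipocyte transcripts. The highest, control replicate 2, was the library with the highest hepatocyte sum (813 CPM). Means were 1271 ± 316 CPM (SD, n = 5) for WD, 1434 ± 933 (n = 4) for batch 1 controls and 2356 ± 424 (n = 5) for batch 2 controls. The edgeR log2 fold change was -0.18 ± 0.49 (SE) within batch 1 (adjusted p = 1.00) and -0.90 ± 0.20 against batch 2 controls (adjusted p = 0.0117). In the fit of all 14 libraries the second value was -0.91, with an adjusted p of 0.442 by edgeR. The 10 adipocyte genes summed to 31225 to 45275 CPM in WD tissue and 54600 to 62853 CPM in batch 2 controls, with 7 of 10 lower and 1 higher by edgeR and a median log2 fold change of -0.94. The part of adipocyte or hepatocyte content in the Trf level was not tested. The Trf locus overlaps the annotated gene Gm20425, whose reads could not be separated here.

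Tfrc (chr16:32608896-32632794, plus strand) ranged from 5.51 to 25.9 CPM in batch 1 controls, from 8.14 to 18.7 CPM in WD tissue and from 10.1 to 32.5 CPM in batch 2 controls, and all 3 ranges overlapped. Its edgeR log2 fold changes were -0.12 ± 0.75 (SE) within batch 1 (adjusted p = 1.00) and -0.57 ± 0.41 against batch 2 controls (adjusted p = 0.561). The receptor mRNA, with 4 matches to the hairpin search in its 3′ UTR, was not shown to differ, and its SE within batch 1 exceeded the estimate.

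Haptoglobin was higher in WD tissue than in batch 2 controls and did not pass the test within batch 1. Hp (chr8:109575128-109579172, minus strand), which fat cells secrete as well as liver, measured 460, 4607, 1355 and 2990 CPM in control replicates 1 to 4. It measured 3088, 8949, 3837, 2733 and 3372 CPM in WD replicates 1 to 5 and 1478, 1182, 687, 1220 and 1640 CPM in control replicates 5 to 9. WD libraries lay above every batch 2 control, while control replicates 2 and 4 of batch 1 lay within the WD range. WD replicate 2 held 83408 counts of Hp, far above the others of its group. The means were 4396 ± 2577 CPM (SD, n = 5) for WD, 2353 ± 1832 (n = 4) for batch 1 controls and 1241 ± 363 (n = 5) for batch 2 controls. By edgeR the log2 fold change was 0.90 ± 0.63 (SE) within batch 1 (adjusted p = 1.00, unadjusted p = 0.180). It was 1.81 ± 0.32 against batch 2 controls (adjusted p = 0.00191 by edgeR), and 1.38 without WD replicate 2 (adjusted p = 0.000605). In the fit of all 14 libraries Hp had 1.81 and an adjusted p of 0.115 by edgeR. The 8 hepatocyte genes summed to 15.1 to 54.6 CPM in WD tissue, with Cyp3a11 and Apoh at 0, below the 46.8 to 97.6 CPM of batch 2 controls except for WD replicate 5. In batch 1 controls the hepatocyte sum was 7.34 to 813 CPM, highest in control replicate 2, which also had the highest Hp of the controls (4607 CPM).

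Cp (chr3:19957054-20009750, plus strand), which overlaps Hps3 on the opposite strand, was highest in control replicates 1 and 3. It measured 340, 73.7, 216 and 54.9 CPM in control replicates 1 to 4, from 56.8 to 149 CPM in WD tissue and from 82.7 to 117 CPM in batch 2 controls. These ranges overlapped, and the edgeR log2 fold changes were -0.87 ± 0.51 (SE) within batch 1 (adjusted p = 1.00) and -0.06 ± 0.26 against batch 2 controls (adjusted p = 0.957). Without control replicate 1, the value within batch 1 was -0.29 (adjusted p = 1.00 by edgeR).

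Lcn2 (chr2:32384637-32387739, minus strand), also named neutrophil gelatinase-associated lipocalin, had nearly all its batch 1 control counts in a single library. Control replicate 1 held 7755 counts (838 CPM), and control replicates 2, 3 and 4 held 68, 342 and 0 counts. WD replicates 1 to 5 held 41, 78, 63, 210 and 56 counts (2.89 to 16.6 CPM), and control replicates 5 to 9 held 40, 12, 0, 50 and 0 counts. The library with 838 CPM of Lcn2 was the one with 39235 CPM of epididymis genes, and the part of epididymis RNA in its Lcn2 was not tested. By edgeR the log2 fold change within batch 1 was -4.88 ± 1.58 (SE; adjusted p = 0.566, unadjusted p = 0.00894) with that library and -0.61 (adjusted p = 1.00) without it. Its direction within batch 1 also turned under limma-voom, which gave 0.28 where the median of all genes moved to 0.42. Against batch 2 controls, which did not include it, the value was 2.24 ± 1.20 with an adjusted p of 0.372 by edgeR. The 9 neutrophil genes found of a list of 10 summed to 54.5 to 156 CPM in WD tissue, with Mpo, Camp, Ngp and Elane at 0, to 125 to 316 CPM in batch 1 controls and to 42.2 to 142 CPM in batch 2 controls.

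The controls of the batches were then compared with each other, to see how far the members moved on the same diet. By edgeR, 0 of 10 members passed, beside 0% of 12106 genes, and DESeq2 called 0 members, beside 0.917% of genes. At an unadjusted p under 0.05, 2 members passed (Slc40a1 and Lcn2, both lower in batch 2), beside 7.39% of genes. Slc40a1 measured 1.30 to 5.23 CPM in batch 2 and 2.34 to 36.8 CPM in batch 1, a log2 fold change of -2.31 ± 0.96 (SE, adjusted p = 0.621 by edgeR), or -1.26 without control replicate 4. For Hmox1 the change was -1.24 ± 0.57 (adjusted p = 0.679 by edgeR) and for Hp -0.93 ± 0.55 (adjusted p = 0.804). Trf had 0.71 ± 0.48 (adjusted p = 0.852 by edgeR). For Ftl1 the controls were closer, at -0.21 ± 0.26 on the log2 scale (adjusted p = 0.961 by edgeR). The remaining 5 members had log2 fold changes of -7.11 (Lcn2) to 0.43 (Tfrc), and no member had groups that did not overlap, beside 4.13% of genes higher and 1.16% lower throughout batch 2. Leaving out 1 library moved several of these values. Without control replicate 2, Hmox1 had -0.79, Hp had -0.38 and Trf had 1.07. Without control replicate 1, Lcn2 had -2.85, Cp had -0.24 and Trf had 0.39. Slc11a1 went from -0.78 to 0.033 without control replicate 4, and Ftl1 ranged from -0.38 to -0.05 over all 9 such fits. The median over the members was -0.80, with 3 above 0 and 7 below, beside -0.00237 over all genes tested.

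A wider list of 62 symbols for iron and heme handling, of which 58 were found, was examined next. Within batch 1, 0 of 46 genes tested passed by edgeR and 4 had an unadjusted p under 0.05, beside 5.17% of all genes, namely Blvra, Slc48a1 and Hfe (higher) and Alas1 (lower). Against batch 2 controls, 2 of 45 genes were higher (Blvra and Tfr2) and 1 was lower (Alas1), a share near the 6.4% of all genes. That share depended on the libraries used. The count was 9 without WD replicate 2, beside 977 of 12436 genes called. It was 5 without WD replicate 1, beside 593 of 12293 genes, and 5 without WD replicate 4, beside 745 of 12496. At an unadjusted p under 0.05, 13 of 45 genes passed, 5 higher and 8 lower, beside 17.7% of all genes. Groups did not overlap for 2 genes that were higher and 5 that were lower, beside 4.99% and 3.8%. The list's median log2 fold change was -0.02 within batch 1 and -0.07 against batch 2 controls. Between the control batches 0 of 47 genes passed by edgeR, and 3 had an unadjusted p under 0.05, beside 7.39% of all genes.

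Blvra, biliverdin reductase A, acts on the product of heme oxygenase. It measured 40.0, 82.2, 60.0 and 144 CPM in control replicates 1 to 4, 144, 220, 199, 142 and 104 CPM in WD replicates 1 to 5 and 36.9, 57.7, 49.4, 64.0 and 73.4 CPM in control replicates 5 to 9. WD libraries lay above all batch 2 controls and overlapped only control replicate 4 in batch 1. By edgeR Blvra was higher against batch 2 controls by 1.51 ± 0.24 (SE) on the log2 scale (adjusted p = 0.00108), and within batch 1 had 0.98 ± 0.39 (adjusted p = 0.831).

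Alas1, which catalyses the rate-limiting step of heme synthesis, showed the opposite direction. Its levels were 27.5, 124, 109 and 171 CPM in control replicates 1 to 4, 57.7, 9.01, 56.6, 37.1 and 49.0 CPM in WD replicates 1 to 5 and 163, 194, 146, 223 and 108 CPM in control replicates 5 to 9. All WD libraries were below all controls other than control replicate 1. By edgeR Alas1 was lower against batch 2 controls, with a log2 fold change of -2.00 ± 0.37 (SE, adjusted p = 0.00300), and had -1.37 ± 0.55 within batch 1 (adjusted p = 0.849).

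Tfr2, a second transferrin receptor known from liver and erythroid cells, was detected in all WD libraries, with 243, 196, 273, 212 and 204 counts in replicates 1 to 5. It had 220, 0, 0 and 70 counts in control replicates 1 to 4 and 0, 11, 0, 37 and 0 counts in control replicates 5 to 9. The WD libraries were even, at 16.8 to 21.03 CPM, while control replicate 1 reached 23.8 CPM. For Tfr2 the edgeR log2 fold change against batch 2 controls was 4.54 ± 1.10 (SE, adjusted p = 0.0183), and within batch 1 it was 1.34 ± 1.46 (adjusted p = 1.00). Slc48a1, a heme transporter of the phagolysosome named here after its values were seen, measured 215 to 447 CPM in WD tissue and 68.6 to 210 CPM in batch 1 controls, without overlap, and 128 to 258 CPM in batch 2 controls. Its edgeR log2 fold change was 1.11 ± 0.36 within batch 1 (adjusted p = 0.566) and 0.50 ± 0.24 against batch 2 controls (adjusted p = 0.280).

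Genes that regulate iron or take up its carriers gave further patterns, all named after their values were seen. Hfe, which with Tfr2 controls hepcidin in liver, measured 1.51, 13.1, 15.8 and 0 CPM in control replicates 1 to 4, 24.2 to 48.3 CPM in WD tissue and 24.4 to 55.2 CPM in batch 2 controls. WD libraries lay above all batch 1 controls but overlapped the batch 2 controls, which were on the same diet as those. By edgeR its log2 fold change was 2.40 ± 1.10 (SE, adjusted p = 0.965) within batch 1 and 0.07 ± 0.28 (adjusted p = 0.957) against batch 2 controls. Hamp, which encodes hepcidin, the hormone that degrades ferroportin, had 407 counts in control replicate 2, the library with the highest hepatocyte sum, 1 count in control replicate 9 and 0 in the other 12 libraries. Cd163, the macrophage receptor for haptoglobin bound to hemoglobin, measured 42.3 to 113 CPM in WD tissue, 34.9 to 163 CPM in batch 1 controls and 86.8 to 159 CPM in batch 2 controls. Its log2 fold change against batch 2 controls was -0.72 ± 0.25 (SE, adjusted p = 0.121 by edgeR).

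**Figure D5:**
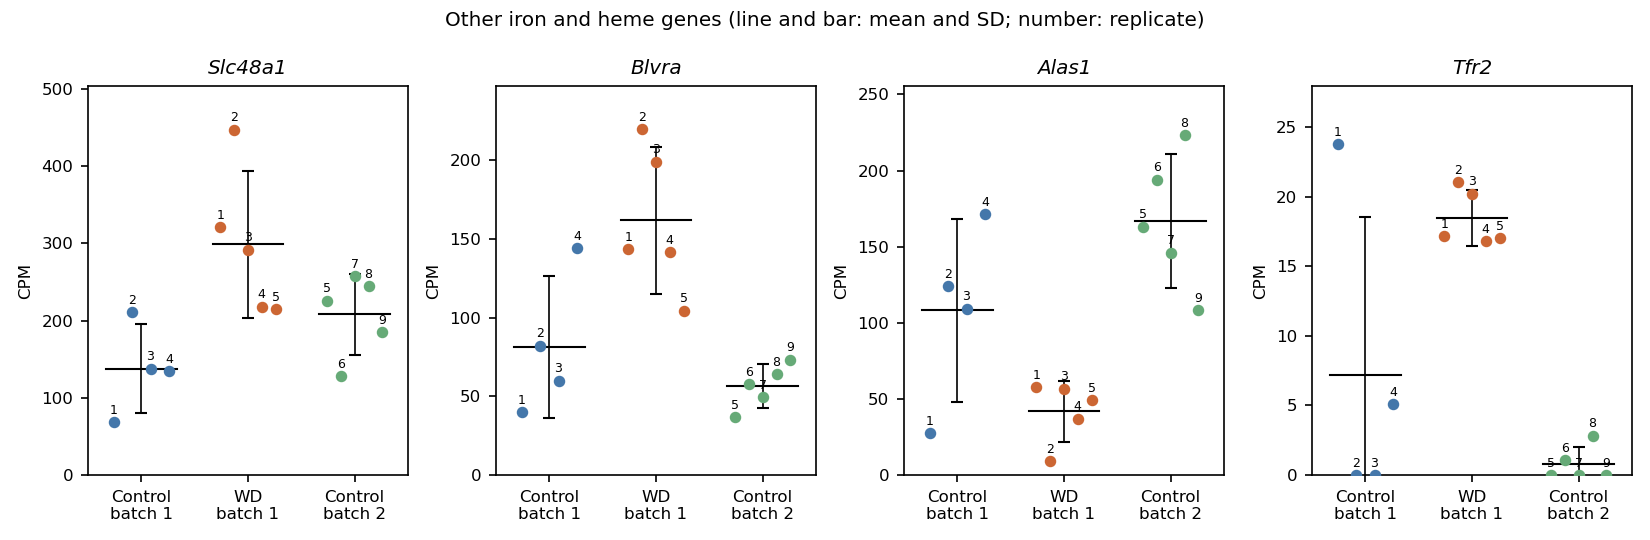
Level in CPM of Slc48a1, Blvra, Alas1 and Tfr2 in each library by group, with the replicate number beside each point, a line at the group mean and bars for the SD. Alas1 in the WD libraries (9.01 to 57.7 CPM) lies below all controls except control replicate 1 (27.5 CPM), and Tfr2 is even across the WD libraries (16.8 to 21.03 CPM).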

How the data were processed

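RNA of eWAT was sequenced with a QuantSeq 3′ mRNA kit. The deposited counts are whole read counts per gene, made by the authors with Bowtie2 and bedtools on mm10 from unique and multiple alignments, and the deposited log2 values are the authors' TMM and CPM normalisation in edgeR with 1 added; tool versions are not given in the sources used here. Groups were taken from the labels. Counts were tested in R 4.3.3 with edgeR 4.0.16 (filterByExpr, TMM, quasi-likelihood test, Benjamini-Hochberg adjustment over all genes tested, FDR 0.05), fitting only the 2 groups compared, with DESeq2 1.42.0, limma 3.58.1 (voom), other scalings, no filter and left-out libraries as alternatives. CPM computed here matched the deposited log2 values with a median difference of 0.000964 and a largest of 0.0507. The fit was also tried on simulated counts, where 200 genes were given a log2 shift of 3. It recovered 86 of the 200 for WD against batch 1 controls, with 4 wrong calls. For WD against batch 2 controls it recovered 170, with 5 wrong calls, and between control batches 101, with 4 wrong calls. A gene not called within batch 1 is therefore not shown to be unchanged. No pair of libraries within a group was a duplicate, and pairs across groups were not checked. Figures were drawn with matplotlib 3.10.9.

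The members and gene lists were chosen with earlier results of these data known. From the wider list, genes were named when called in a comparison, up to 5 by lowest FDR, and Slc48a1, Hfe, Hamp and Cd163 were named besides, after their values were seen. Same-numbered libraries of the diets in batch 1 did not deviate together (correlations of -0.036, 0.045, 0.059 and 0.088 for replicates 1 to 4), so no pairing was used. The log2 values were used only for that check of scale. Apart from the ratio of the ferritin chain counts, levels of different genes were not ranked against each other.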

Additional observations from a re-analysis of the deposited data

Results flagged for a closer look

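WD replicate 2 stood far from the other 4 WD libraries for 2 members, by Dixon's criterion on log2(CPM + 1). Its Slc11a1 level was 1.96 on that scale (27 counts), the lowest of its group, and its Hp level was 13.13 (83408 counts), the highest. Over the 30 gene and group combinations examined, chance alone gives about 1.5 such values, or 1 in 20. The part of a difference in cell content in these values was not tested.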

How the results depend on the processing

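Within batch 1 the count of members called was 0 under every scaling, without a filter, under DESeq2, limma-voom and the fit of all 14 libraries, and ranged from 0 to 0 with each library left out. With all 9 controls and no batch term, a fit that is not within batch 1 and mixes diet with batch, the count was 1 (Ftl1). Against batch 2 controls the edgeR count was 5, and 4 to 5 with each library left out. It was 1 in the fit of all 14 libraries. Slc11a1, among the 5, did not pass by limma-voom. Between control batches it ranged from 0 to 0.

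Some estimates that had not passed the test changed sign, within batch 1 as follows. Fth1 was 0.0032 without a filter, 0.053 by limma-voom, 0.041 with a replicate block, 0.18 without WD replicate 2 and control replicate 4 (chosen after seeing the data) and -0.20 to 0.13 with a library left out. Trf was 0.11 by limma-voom, 0.024 with the block and -0.50 to 0.16 with a library left out. Tfrc was 0.028 with the block and -0.38 to 0.32 with a library left out. Slc40a1 was 0.52 without control replicates 1 and 4 (chosen after seeing the data) and -1.32 to 0.27 with a library left out. With all 9 controls, and so not within batch 1 alone, Slc40a1 was 0.078. Lcn2 was 0.28 by limma-voom, which moved the median of all genes to 0.42. Against batch 2 controls, Cp was -0.29 to 0.074 with a library left out. Between control batches, Fth1 was -0.061 to 0.30 with a library left out and -0.047 without control replicates 1 and 4, and Slc11a1 was -1.05 to 0.033. The cause was not tested.

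The replicate number as a block, over replicates 1 to 4 of both diets, left 0 members called (Ftl1 0.97, adjusted p = 1.00 by edgeR).

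Over all genes, calls within batch 1 were 0 by edgeR, 114 by DESeq2 and 48 without control replicate 4. With all 9 controls and no batch term they were 67. Against batch 2 controls they were 773, or 140 in the fit of all 14 libraries. Between control batches they were 0 by edgeR and 111 by DESeq2. The wider list had 3 calls against batch 2 controls, beside 773 of 12070 genes. With a library left out it had 3 to 9, beside 565 to 977 genes. Without a filter it had 5, beside 818 of 16429 genes. By DESeq2 it had 6, beside 1144 of 12070 genes, and by limma-voom 7, beside 834 of 12070. A count of 0 allows up to 3 counts, 0.212 to 0.324 CPM.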
